A study of Mus musculus with 32 samples.

Results

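Astrocytes sorted with the ACSA2 antibody from 6 month old TDP-43_Q331K mice were compared with those from 3 month old mice of the same genotype. All libraries of both ages were taken, 5 at 6 months and 4 at 3 months, which are 9 of the 32 samples of the series. The cells came from cortices and spinal cords, which the labels do not keep apart. Every mouse carried the TDP-43_Q331K transgene, a mutated TDP-43 used to model amyotrophic lateral sclerosis (ALS), whose normal product binds RNA. Nontransgenic mice were not analysed here, so a change with age cannot be told apart from ageing without it. The promoter that drives the transgene and the hour of the day at which mice were taken are not given in the labels used here. The labels do not say whether each library came from its own mouse, so the p-values measure the spread between these libraries, which may be technical in part. The 2 ACSA2 libraries of 10 month old mice entered the fit, and the O4 sorted oligodendrocyte lineage cells of the same genotype, tissues and ages (4 libraries at 3 months and 4 at 6 months) served for comparison.

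Astrocytes clear glutamate and potassium, couple to each other through gap junctions, and supply neurons with lactate and lipid. They also hold a cell-autonomous circadian clock, in which the CLOCK and BMAL1 proteins bind DNA elements called E-boxes and drive the genes of their own repressors, the PER, CRY and REV-ERB proteins. The ACSA2 antibody binds a surface epitope of the sodium pump subunit ATP1B2, which astrocytes carry in abundance.

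Levels are given as CPM, counts relative to the size of the library after TMM scaling. Different genes are set side by side only in TPM, which also corrects for gene length. Of 55291 genes listed, 16189 passed a minimum count and were tested. A gene was called when its edgeR quasi-likelihood test had a Benjamini-Hochberg adjusted p under 0.05 over all of them. Changes are log2 fold changes of 6 over 3 months with standard errors. A call is described as held when the gene was also called, in the same direction, with each of the 9 libraries left out in turn. Total counts were between 7604222 and 20763190 per library at 3 months and between 6151583 and 15222313 at 6 months. The share of CT010467.1, the most abundant transcript, ranged from 2.21% to 4.82% at 3 months and from 0.84% to 3.37% at 6 months.

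The astrocyte markers stood high at both ages, and so did myelin transcripts, whose summed level is given below. The glutamate transporter gene Slc1a2 was at 4274 ± 839.6 TPM at 3 months and 3812 ± 417 TPM at 6 months (mean ± SD, n = 4 and 5), and the glycolytic gene Aldoc at 2655 ± 565 TPM at 3 months and 3105 ± 479 TPM at 6 months. Other astrocyte markers stood lower, with Aldh1l1 at 159 ± 31 TPM and Gfap at 121 ± 26 TPM at 3 months. Myelin genes also differed in level at that age, with Cldn11 at 2107 ± 385 TPM and Gal3st1 at 93.6 ± 17.9 TPM. The label of astrocytes therefore holds for the leading astrocyte markers, in sorts that also held much RNA of myelinating oligodendrocytes. In bulk RNA, fewer cells of a type and less RNA per cell cannot be told apart.

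The summed level of 14 astrocyte markers was 24463 to 36930 CPM at 3 months and 29177 to 34530 CPM at 6 months, and 0 of the 14 were called (median 0.11 on the log2 scale). The sum over 22 myelinating oligodendrocyte markers was 28268 to 44701 CPM at 3 months and 19377 to 29380 CPM at 6 months, which overlapped in range through the lowest 3 month library. Of these 22 genes 13 fell and 0 rose, and 11 of the calls held. All 22 were detected in each library, as were the 12 precursor markers, of which Olig2 and Bcas1 fell (1 held) and the defining gene Pdgfra stood at 3.74 ± 1.58 TPM at 3 months and 3.32 ± 1.41 TPM at 6 months. Choroid plexus markers summed to 264 to 1633 CPM at 3 months and 181 to 349 CPM at 6 months, and 8 of 18 fell (6 held). Ependymal markers summed to 625 to 873 CPM and then 846 to 1298 CPM, and 8 of 12 rose (2 held). Leaving out 3 month replicate 1 or 6 month replicate 3 brought the ependymal count to 2, leaving out 3 month replicate 4 to 3, and leaving out 6 month replicate 4 to 5. Microglia and macrophage markers summed to 52.1 to 56.9 CPM and then 62.2 to 84.4 CPM, with Aif1, Itgam, Trem2, Tyrobp and Siglech too low to test. Csf1r and C1qc rose of the 11 tested, and neither was called once 3 month replicate 1 or 4, or 6 month replicate 3, was left out. Among endothelial markers 2 of 16 fell, a count of 6 when 3 month replicate 1 was dropped, of 8 when 6 month replicate 1 was dropped, and of 1 for each other library but 6 month replicate 2. Of mural and fibroblast markers 1 of 12 fell, and of neuronal markers 5 of 15, which became 1 to 3 without each library except 6 month replicate 1. Over all tested genes 8.29% fell and 6.28% rose. Of endothelial markers 12.5% fell, and of mural and fibroblast markers 8.33%.

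**Figure D1:**
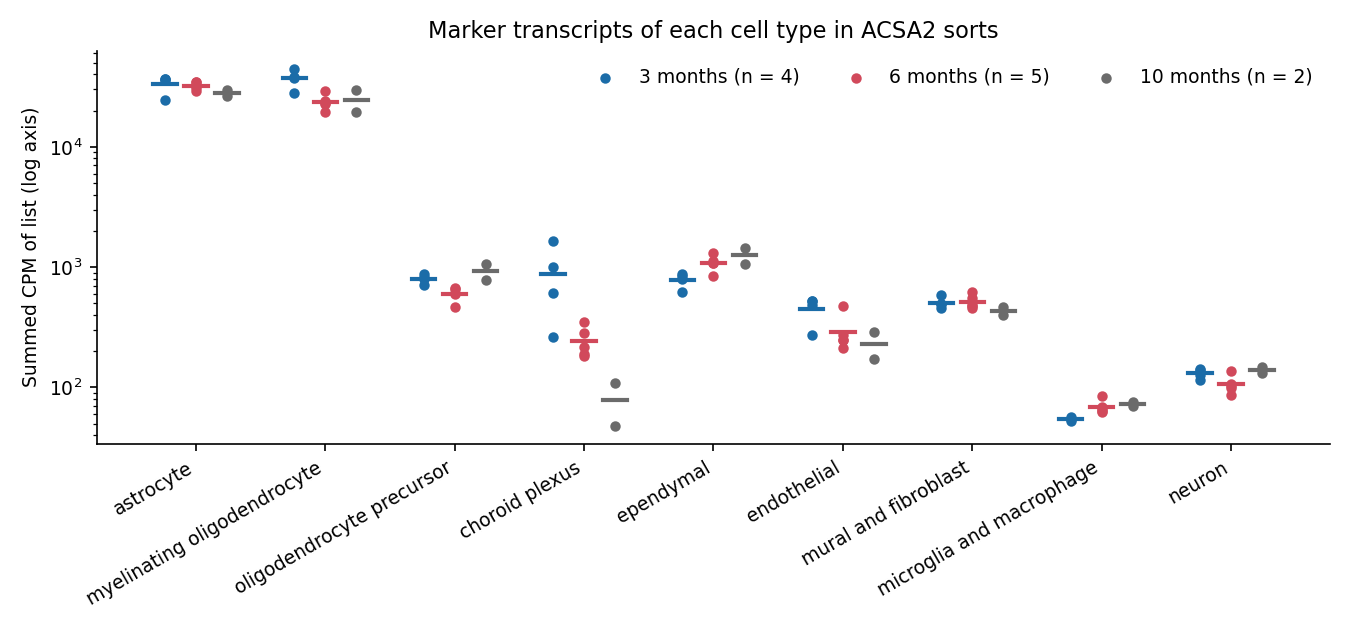
Summed CPM (log axis) of the marker genes of 9 cell types in each ACSA2 library at 3, 6 and 10 months, with a bar at the mean of each age. The 5 libraries of 6 months had myelinating oligodendrocyte sums of 19377 to 29380 CPM against 28268 to 44701 CPM at 3 months, while astrocyte sums overlapped.

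At 6 months 2359 genes (14.6% of those tested) differed from 3 months, of which 1017 (6.28%) rose and 1342 (8.29%) fell. The call held for 930 genes (5.74%), 415 of them higher (2.56%) and 515 lower (3.18%). The libraries of the ages did not overlap for 2119 genes (13.1%). The direction of change went with the level of a gene in the other sort. Of the genes that fell, 91.5% were higher in O4 than in ACSA2 sorts, against 8.71% of the genes that rose and 47.6% of all tested genes. Among genes at least 4-fold higher in ACSA2 than in O4 sorts, 509 of 2346 rose and 12 fell, with a median change of 0.32 on the log2 scale. Among genes at least 4-fold higher in O4 sorts, 5 of 205 rose and 41 fell, with a median of -0.35. The remaining 13326 genes had a median of -0.04, and all tested genes together one of 0.003. The ratio between sorts uses the same ACSA2 libraries as the change with age, so these shares are a description.

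**Figure D2:**
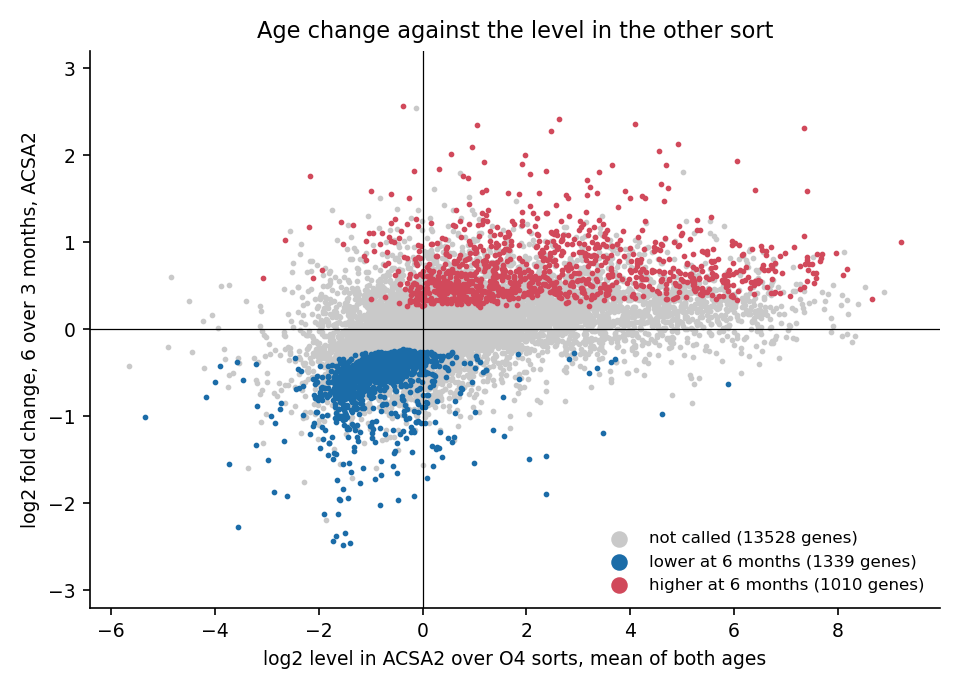
Log2 fold change of 6 over 3 months in ACSA2 astrocytes (vertical axis) against the log2 level in ACSA2 over O4 sorts, averaged over both ages (horizontal axis), for 15877 genes. The 1010 genes called higher lie mostly to the right of 0 and the 1339 called lower mostly to the left.

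Because of this pattern the fit was repeated with the log2 summed level of the 22 myelinating oligodendrocyte markers as a term. This setting was chosen after the data had been seen, and the term and age move together in these libraries, so the fit cannot fully tell them apart. With the term 14 genes were called, 9 higher and 5 lower, of which 13 were among the 2359. They were the clock genes Ciart, Dbp and Arntl, the neurotrophin receptor gene Ngfr, Pik3ip1, Slco4a1, Icosl, Plppr3 and Rbm3, the kinase gene Hipk2, the BMP receptor gene Bmpr2, the GABA receptor gene Gabra2, the protease gene Mmp14 and the cytokine receptor gene Csf2ra. At an unadjusted p under 0.05 there were 2084 genes, against 4790 without the term. The median change of the genes that fell went from -0.47 to -0.26, and that of the genes that rose from 0.61 to 0.42. All other calls below were lost with the term, and its values are given beside the leading genes.

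Circadian clock genes moved in both directions. The hour of collection is not given, so a change with age in these genes cannot be told apart from a difference in hour. Of 26 clock genes tested, pooled from 3 lists, 14 were called (53.8%, against 14.6% of all genes). By list the share was 81.8% of the repressors, 37.5% of the output and kinase genes and 28.6% of the activators. Antigen presentation and complement had 38.9%, the highest share of a list without clock genes, cell type marker lists aside. Of the marker lists, 66.7% of ependymal, 59.1% of myelinating oligodendrocyte and 44.4% of choroid plexus genes were called. The shares were not tested against each other. In every one of the 14 the libraries of the ages did not overlap and the call held. There were 11 higher and 3 lower. Of 11 repressor genes 8 rose and Nfil3 fell, of 8 output and kinase genes 3 rose, and of 7 activator genes Arntl and Clock fell.

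The promoter windows of RefSeq (GRCm38.p6) are shown for 4 of these genes, since CLOCK and BMAL1 act through this DNA element. Each runs from 250 bases before to 50 bases after an annotated start, 5′ to 3′ on the strand of the gene. Capitals mark the E-box CACGTG, which reads the same on both strands. Ciart holds 3 copies, Bhlhe41 and Tef 1 copy each, and Arntl, which fell, none in this window.
Ciart, chr3:95882179-95882478, minus strand: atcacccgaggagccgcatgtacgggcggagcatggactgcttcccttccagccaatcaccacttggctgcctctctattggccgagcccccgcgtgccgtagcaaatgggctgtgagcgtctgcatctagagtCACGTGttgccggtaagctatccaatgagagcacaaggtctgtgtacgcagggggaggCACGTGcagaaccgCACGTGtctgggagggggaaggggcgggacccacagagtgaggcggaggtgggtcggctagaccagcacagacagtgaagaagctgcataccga
Bhlhe41, chr6:145865371-145865670, minus strand: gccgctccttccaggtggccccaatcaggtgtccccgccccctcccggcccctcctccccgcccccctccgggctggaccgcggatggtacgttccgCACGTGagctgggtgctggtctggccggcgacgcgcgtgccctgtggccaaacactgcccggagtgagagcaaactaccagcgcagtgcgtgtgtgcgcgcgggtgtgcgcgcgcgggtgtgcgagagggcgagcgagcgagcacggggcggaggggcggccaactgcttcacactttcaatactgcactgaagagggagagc
Tef, chr15:81811164-81811463, plus strand: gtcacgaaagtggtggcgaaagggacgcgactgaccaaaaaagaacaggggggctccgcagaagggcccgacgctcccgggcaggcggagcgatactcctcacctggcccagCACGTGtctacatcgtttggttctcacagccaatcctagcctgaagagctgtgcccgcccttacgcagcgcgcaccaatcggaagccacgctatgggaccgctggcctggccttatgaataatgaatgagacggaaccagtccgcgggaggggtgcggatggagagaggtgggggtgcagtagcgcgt
Arntl, chr7:113207215-113207514, plus strand: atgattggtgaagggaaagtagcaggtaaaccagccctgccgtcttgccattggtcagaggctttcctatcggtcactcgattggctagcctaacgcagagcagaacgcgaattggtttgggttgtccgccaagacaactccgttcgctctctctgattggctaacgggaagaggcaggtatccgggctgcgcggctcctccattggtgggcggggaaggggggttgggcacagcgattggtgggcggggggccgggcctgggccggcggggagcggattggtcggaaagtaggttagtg

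The copies in Ciart begin 116, 58 and 44 bases before the start, that in Bhlhe41 153 bases before it and that in Tef 138 bases before it. Tef has another annotated start whose window also holds 1 copy. Of the 26 clock genes 21 had a promoter in the RefSeq table, and 5 of the 21 (23.8%) held the element in any of their windows: Ciart, Bhlhe41, Tef, Per1 and Cry1. The share was 8.09% of all 27025 genes with a promoter, 11.2% of the tested ones, 12.6% of the genes that rose and 9.92% of those that fell. Of the 9 clock genes that rose and had a window 3 held it, while Dbp, Per3, Cry2, Nr1d1, Nr1d2 and Usp2 did not. It was also held by 2 of the 9 clock genes that had a window and were not called (22.2%). A match is a description of letters and not of binding.

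Ciart, a repressor of the CLOCK and BMAL1 proteins (chromosome 3, 95878503 to 95882251, minus strand, on GRCm38 in GENCODE vM21), stood at 6.47, 4.21, 4.48 and 6.96 CPM at 3 months and 19.6, 36.0, 29.2, 21.3 and 16.6 CPM at 6 months. Every 6 month library was higher than every 3 month library. The rise was 2.09 ± 0.23 on the log2 scale (adjusted p = 0.000191), and 2.705 ± 0.30 with the myelin term (adjusted p = 0.00119). Period genes encode repressors that act together with cryptochromes. Per2 stood at 29.8, 31.8, 18.1 and 42.5 CPM at 3 months and 67.3, 77.2, 80.9, 66.6 and 67.8 CPM at 6 months, without overlap, a rise of 1.21 ± 0.17 on the log2 scale (adjusted p = 0.000819). Per3 stood at 76.4, 86.3, 56.1 and 85.0 CPM at 3 months and 113, 166, 173, 152 and 141 CPM at 6 months, also without overlap, a rise of 0.97 ± 0.13 on the log2 scale (adjusted p = 0.000768). With the myelin term Per2 was at 1.35 ± 0.28 (adjusted p = 0.113) and Per3 at 0.99 ± 0.21 (adjusted p = 0.085). Per1 was at 48.1, 67.1, 71.1 and 152 CPM at 3 months and 155, 163, 159, 130.1 and 148 CPM at 6 months, and 3 month replicate 4 lay among the 6 month libraries. Its change of 0.81 ± 0.27 (adjusted p = 0.0701) did not pass the test.

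The cryptochrome genes did not share a course. Cry2 stood at 139, 134, 109.9 and 107 CPM at 3 months and 176, 177, 175, 169 and 163 CPM at 6 months and rose by 0.49 ± 0.092 on the log2 scale (adjusted p = 0.00285). Cry1 stood at 30.8 to 35.0 CPM at 3 months and 32.7 to 35.4 CPM at 6 months, a change of 0.061 ± 0.097 (adjusted p = 0.719). Nr1d1 and Nr1d2 encode the REV-ERB receptors, which repress Arntl and Nfil3. Nr1d1 (chromosome 11, 98767932 to 98775333, minus strand) stood at 285, 298, 256 and 197 CPM at 3 months and 393, 427, 446, 344 and 426 CPM at 6 months, a rise of 0.65 ± 0.12 on the log2 scale (adjusted p = 0.00258). It overlaps Thra on the opposite strand, and no source used here says whether the counting kept strand, so its level is uncertain. The same holds below for Tspan4, Zmynd12, Slc7a10, Atxn2, Srebf1 and Adamts4, which overlap an expressed gene on the opposite strand. Nr1d2 stood at 91.7, 86.3, 84.1 and 89.4 CPM at 3 months and 117, 137, 146, 138 and 178 CPM at 6 months, a rise of 0.71 ± 0.11 on the log2 scale (adjusted p = 0.001). In both receptor genes the ages were fully apart.

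Bhlhe40 and Bhlhe41 encode repressors that compete at E-boxes. Bhlhe40 ranged over 100.4 to 147 CPM at 3 months and 189.9 to 218 CPM at 6 months, a rise of 0.67 ± 0.10 (adjusted p = 0.00119). Bhlhe41 ranged over 78.6 to 107 CPM at 3 months and 113 to 135 CPM at 6 months, a rise of 0.41 ± 0.094 (adjusted p = 0.00825). Nfil3, whose product represses the genes that DBP and TEF activate, went the other way. It stood at 7.12, 5.70, 10.1 and 9.34 CPM at 3 months and 3.90, 3.69, 4.83, 4.42 and 3.71 CPM at 6 months, with every 6 month library lower. It fell by 0.96 (SE 0.20; adjusted p = 0.00557) on the log2 scale, and was at -0.34 ± 0.30 with the myelin term (adjusted p = 0.676).

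Among the outputs, Dbp, a transcription factor driven directly by the clock, stood at 53.4, 65.7, 53.4 and 37.2 CPM at 3 months and 171, 183, 176, 156 and 121 CPM at 6 months. The lowest 6 month library, replicate 5, was well above the highest 3 month library. The rise was 1.63 ± 0.15 on the log2 scale (adjusted p = 8.82e-05), and the change with the myelin term was 1.60 ± 0.23 (adjusted p = 0.027). Dbp overlaps Sphk2, which stood at a mean of 30.3 CPM, on the opposite strand. Tef, of the same family as Dbp, stood at 168, 161, 137 and 154 CPM at 3 months and 229, 262, 273, 247 and 206 CPM at 6 months, a rise of 0.65 ± 0.099 on the log2 scale (adjusted p = 0.000998). Hlf, also of that family, did not pass the test at 129 to 213 CPM at 3 months and 184 to 229.9 CPM at 6 months (0.16 ± 0.13, adjusted p = 0.445). The rhythmic deubiquitinase gene Usp2 ranged over 110.2 to 117 CPM at 3 months and 138 to 169 CPM at 6 months, a rise of 0.44 ± 0.091 (adjusted p = 0.00501). The kinase genes Csnk1d (-0.073 ± 0.079) and Csnk1e (0.030 ± 0.088), which mark PER proteins for breakdown, and the ubiquitin ligase gene Fbxl21 (0.40 ± 0.20) did not pass.

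Of the activators, Arntl, which encodes BMAL1 (chromosome 7, 113207465 to 113314126, plus strand), stood at 46.6, 47.8, 36.8 and 45.4 CPM at 3 months and 24.6, 18.4, 22.5, 24.1 and 24.5 CPM at 6 months. No library of 6 months reached the lowest of 3 months. It fell by 0.95 (SE 0.10; adjusted p = 0.000191) on the log2 scale, and was at -1.07 ± 0.16 with the myelin term (adjusted p = 0.0164). Clock stood at 119, 115, 133 and 155 CPM at 3 months and 68.6, 97.9, 73.7, 84.9 and 103 CPM at 6 months and fell by 0.61 (SE 0.12; adjusted p = 0.00349), also without overlap. With the myelin term Clock was at -0.45 ± 0.18 (adjusted p = 0.315). Npas2 (-0.19 ± 0.12), a relative of Clock, and Arntl2 (-0.067 ± 0.24), Rora (0.035 ± 0.10) and Rorb (-0.16 ± 0.097) did not pass. Rora had no stable direction, at -0.04 without 3 month replicate 4 and -0.02 without 6 month replicate 5.

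The 10 month libraries give a further point, from 2 libraries that share the 3 and 6 month libraries as their reference. Among the clock genes 11 were called at 10 over 3 months, a count given without the share of all genes in that contrast. Arntl stood at 39.6 and 41.7 CPM at 10 months, within the range of 3 months, and differed from 6 months by 0.83 ± 0.13 (adjusted p = 0.00998). Nfil3 stood at 6.86 and 11.7 CPM, a difference from 6 months of 1.16 ± 0.24 (adjusted p = 0.0316). Ciart was at 11.3 and 9.55 CPM, lower than at 6 months by a log2 change of -1.23 ± 0.27 (adjusted p = 0.0431) and above 3 months by 0.86 ± 0.29 (adjusted p = 0.0413). Nr1d2 was at 98.9 and 82.3 CPM and differed from 6 months by -0.66 ± 0.14 (adjusted p = 0.0303). Dbp stood at 99.5 and 111 CPM, between both ages, with -0.62 ± 0.18 (adjusted p = 0.104) against 6 months and 1.02 ± 0.18 (adjusted p = 0.00142) against 3 months. Clock was also low at 76.0 and 76.9 CPM, -0.77 ± 0.16 (adjusted p = 0.00288) against 3 months, and Cry2 was also high at 185 and 178 CPM, 0.57 ± 0.12 (adjusted p = 0.00276).

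**Figure D3:**
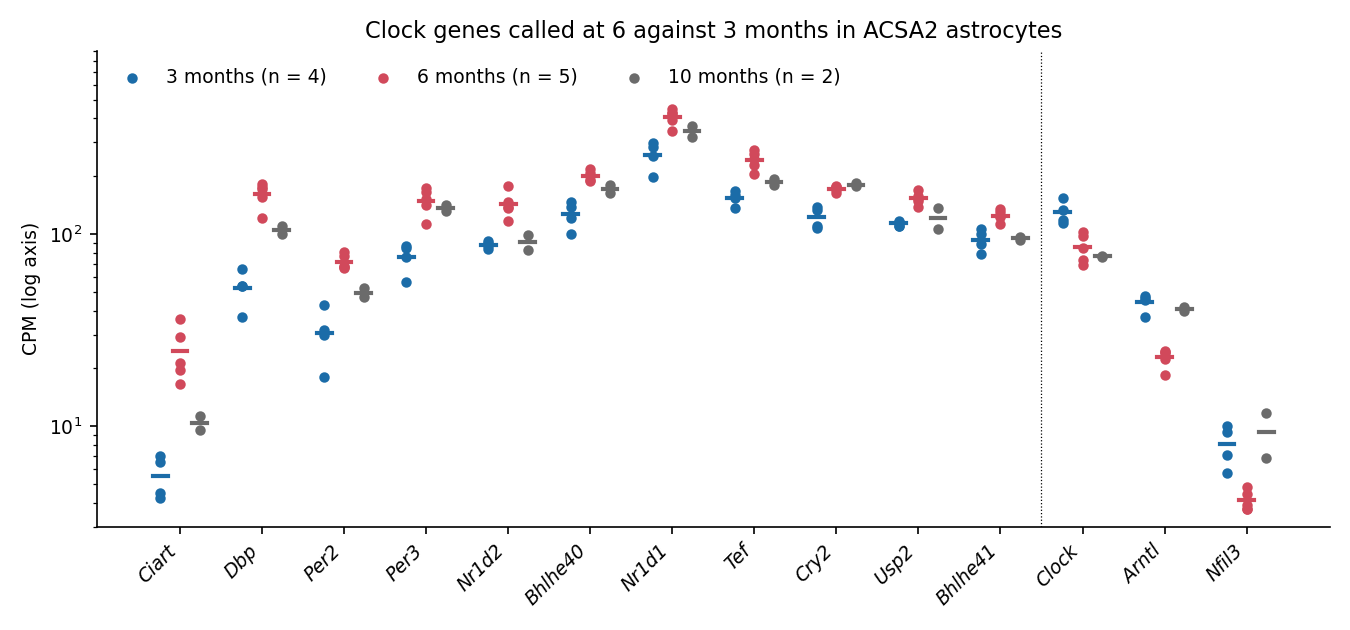
CPM (log axis) of the 14 called clock genes in each ACSA2 library at 3 months (n = 4), 6 months (n = 5) and 10 months (n = 2), with a bar at each mean. To the left of the dotted line 11 genes were higher at 6 than at 3 months, to the right 3 were lower, and Arntl at 10 months stood at 39.6 and 41.7 CPM.

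The age change of clock genes was set against that in O4 sorted cells by an interaction term over 17 libraries. Markers of other cells rose in the O4 sorts, where 14.3% of all genes did. They were 16 of 16 endothelial markers (median 2.64), 10 of 13 mural and fibroblast, 17 of 18 choroid plexus and 7 of 16 neuronal ones. Of 22 myelinating oligodendrocyte markers 2 rose and 11 fell there. The part of such RNA in the O4 changes and sort differences, here and below, was not tested. Over all genes 2684 of 16363 (16.4%) had age changes that differed between the sorts, 1053 (6.44%) with the astrocyte change higher and 1631 (9.97%) with it lower. Of the 26 clock genes 12 differed, 10 of them among the 14 called in astrocytes. In O4 cells, where 14.3% of genes rose and 13.1% fell, 8 clock genes were called, a count of 4 without O4 replicate 3 of 3 months and of 5 without replicate 1 or 4 of 3 months or 4 of 6 months. Dbp changed by -0.53 ± 0.20 in O4 cells (adjusted p = 0.05, just past the threshold and not called), and the astrocyte change exceeded it by 2.18 ± 0.25 (adjusted p = 2.89e-05). Ciart changed by -0.054 ± 0.24 in O4 cells, a difference of 2.19 ± 0.32 (adjusted p = 0.000138). Arntl rose in O4 cells by 0.45 ± 0.15 (adjusted p = 0.0285), while it fell in astrocytes, a difference of -1.38 ± 0.20 (adjusted p = 0.000121). Its O4 levels were 10.9 to 13.3 CPM at 3 months and 22.4, 12.6, 16.6 and 14.4 CPM at 6 months. The O4 rise was 0.27 ± 0.13 (adjusted p = 0.133) without 6 month replicate 1, and its call was also lost without each of 4 other O4 libraries, while the difference between the sorts was called with each of the 17 libraries left out. Npas2 rose in O4 cells by 2.03 ± 0.30 (adjusted p = 6.32e-05), from levels of 0.395 to 1.55 CPM to 2.75 to 3.82 CPM, a difference of -2.21 ± 0.35 (adjusted p = 0.000279).

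The O4 library of 6 month replicate 1 stood apart from the other three in its clock genes, with Per1 at 165 CPM against 44.0 to 62.1 CPM and Per3 at 9.06 CPM against 26.8 to 29.6 CPM. Without it the difference of Per3 went from 1.37 ± 0.34 (adjusted p = 0.0117) to 1.10 (adjusted p = 0.000301), and that of Per2 from 0.74 ± 0.32 (adjusted p = 0.125), which did not pass, to 1.04 (adjusted p = 0.0123), which did. The differences of Clock (-0.60 ± 0.16, adjusted p = 0.0124), Cry2 (0.49 ± 0.13, adjusted p = 0.0112) and Tef (0.61 ± 0.14, adjusted p = 0.00488) were called with each of the 17 libraries left out in turn. That of Bhlhe41 (0.60 ± 0.17, adjusted p = 0.0216) needed O4 6 month replicate 3, and that of Nfil3 (-0.81 ± 0.23, adjusted p = 0.0212) needed ACSA2 replicates 3 and 4 of 3 months. That of Nr1d2 (0.64 ± 0.20, adjusted p = 0.0292) was lost without 8 different libraries, as was that of Arntl2 (1.25 ± 0.39, adjusted p = 0.0334). Nr1d1 rose in O4 cells too, by 0.61 ± 0.21 (adjusted p = 0.0369), and the difference was 0.066 ± 0.27 (adjusted p = 0.902). That O4 call was lost without each of 5 O4 libraries. Bhlhe40 rose in O4 cells by 0.43 ± 0.11 and Usp2 by 0.27 ± 0.099, a call lost without each of 6 O4 libraries.

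**Figure D4:**
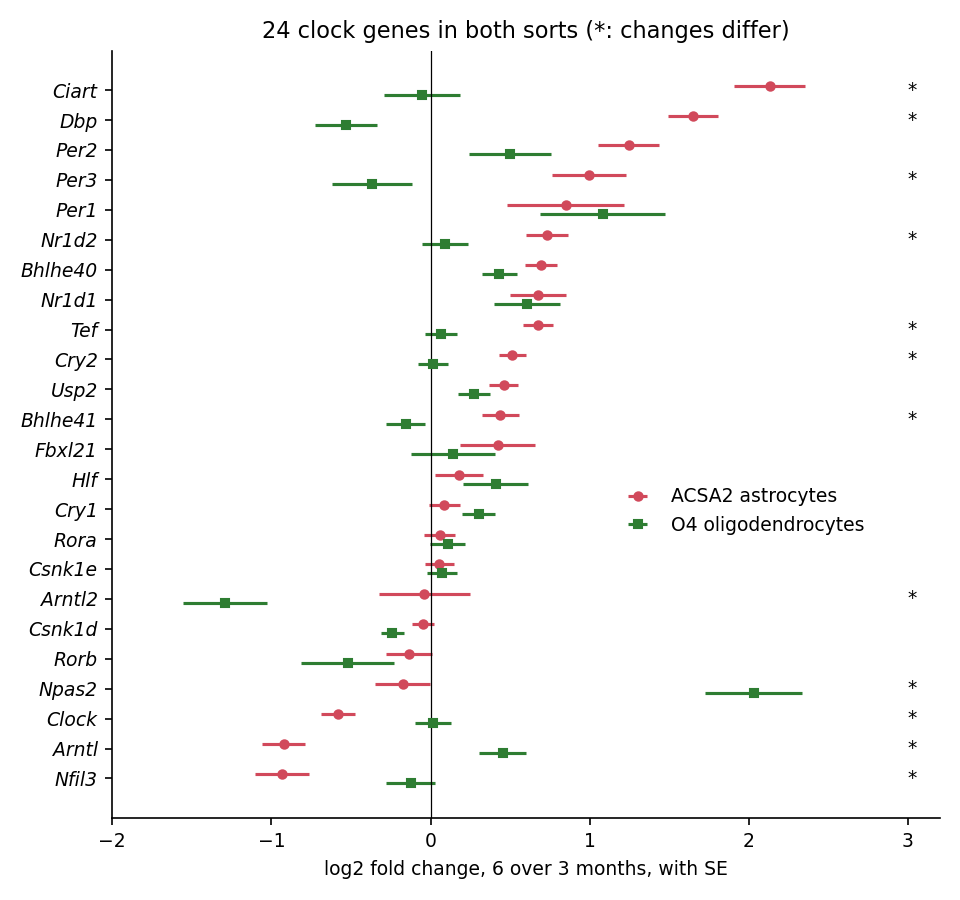
Log2 fold change of 6 over 3 months with standard error for 24 clock genes in ACSA2 astrocytes (circles) and O4 oligodendrocyte lineage cells (squares), from the joint fit of 17 libraries. A star marks the 12 genes whose changes differed between the sorts, among them Ciart, Dbp, Per3 and Arntl.

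Outside the clock list, Pcdhb11, a clustered protocadherin whose close relatives make its counts uncertain, stood at 3.34, 2.85, 2.85 and 2.85 CPM at 3 months and 6.30, 8.81, 7.25, 6.63 and 8.61 CPM at 6 months and rose by 1.33 ± 0.17 on the log2 scale (adjusted p = 0.000545). In O4 cells it changed by -0.34 ± 0.25, a difference of 1.70 ± 0.32 (adjusted p = 0.00122). Ngfr, the low-affinity neurotrophin receptor, stood at 8.63, 7.87, 8.29 and 7.16 CPM at 3 months and 18.3, 24.03, 19.4, 19.3 and 12.3 CPM at 6 months. All 6 month libraries were higher, which the rule for naming genes by size of change required. The rise was 1.22 ± 0.18 on the log2 scale (adjusted p = 0.000819) and 1.74 ± 0.24 with the myelin term (adjusted p = 0.00482). The tetraspanin gene Tspan4 ranged over 4.93 to 7.47 CPM at 3 months and 10.9 to 18.0 CPM at 6 months, a rise of 1.24 ± 0.19 (adjusted p = 0.000998). The phosphatase-like gene Styxl1 rose by 1.21 ± 0.26 and Zmynd12 by 1.24 ± 0.28, both from low levels, with 1.40 to 4.07 CPM at 3 months and 5.29 to 6.44 CPM at 6 months in the former. Hba-a1, an alpha globin gene of red blood cells with a near-identical copy, rose by 1.24 ± 0.28 over 2.17 to 4.48 CPM at 3 months and 4.81 to 10.6 CPM at 6 months, and is uncertain.

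Hif3a, a gene of the hypoxia-inducible factor family that glucocorticoids also induce, rose by 1.51 ± 0.18. Its list of 22 glucocorticoid response genes had 2 higher and 4 lower, a share of 27.3% called, with a median of 0.11. Tsc22d3, an anti-inflammatory target known as GILZ, was the other that rose (0.44 ± 0.14), a call that did not hold. The receptor gene Nr3c1 fell by 0.31 (SE 0.096; adjusted p = 0.0346), at 264 to 317 CPM at 3 months and 204 to 257 CPM at 6 months, but the call was lost without each of 6 libraries in turn. Cdkn1a and Pla2g4a fell and held, Errfi1 fell without holding, and dropping replicate 4 of either age left 2 lower genes. Fkbp5 (0.48 ± 0.38), Sgk1 (-0.74 ± 0.69) and Klf9 (0.19 ± 0.086), which are classical targets, did not pass. In the hypoxia list 1 of 17 rose and 1 fell (11.8% called). They were the carbonic anhydrase gene Car9, at 4.64, 7.87, 6.11 and 5.29 CPM at 3 months and 10.6, 9.13, 9.79, 10.1 and 15.2 CPM at 6 months, a rise of 0.90 ± 0.20 on the log2 scale (adjusted p = 0.00619), and the stress gene Ndrg1, which oligodendrocytes also express and which was higher in O4 sorts (log2 ratio of ACSA2 over O4 -1.65). Ndrg1 fell by 0.71 (SE 0.16; adjusted p = 0.00939) and was at 0.020 ± 0.13 with the myelin term.

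Genes that mark or serve astrocytes were called at shares near that of all tested genes (14.6%). Of 30 identity and surface genes 4 rose and 1 fell (16.7% called, median 0.11). Dio2, the deiodinase that makes active thyroid hormone, stood at 374, 394, 363 and 427 CPM at 3 months and 269.6, 181, 236, 254 and 318 CPM at 6 months, with no overlap, and fell by 0.63 (SE 0.12; adjusted p = 0.00357). It was higher in ACSA2 than in O4 sorts by 5.88 on the log2 scale, and with the myelin term it was at -0.85 ± 0.18 (adjusted p = 0.0917). Agt, the angiotensinogen gene, stood at 112, 108, 97.8 and 83.9 CPM at 3 months and 190.2, 238, 205, 144 and 139 CPM at 6 months and rose by 0.87 ± 0.17 on the log2 scale (adjusted p = 0.0048), also without overlap. Slc14a1 (urea transporter), Atp13a4 and the intermediate filament gene Vim were called higher but not held. Dropping 3 month replicate 4 left 1 rise, and dropping 6 month replicate 3, 4 or 5 left 2.

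In potassium, water and gap junction handling 1 gene rose and 2 fell of 16 (18.8% called). Kcnj10, the inward rectifier Kir4.1 through which astrocytes take up potassium, stood at 1532, 1494, 1592 and 1483 CPM at 3 months and 1220.2, 1062, 1071, 1109 and 1132 CPM at 6 months. Its 9 libraries did not overlap between ages, and it fell by 0.45 (SE 0.096; adjusted p = 0.00589). Its level was close to equal in both sorts (-0.15 on the log2 scale), and its change was -0.51 ± 0.13 with the myelin term (adjusted p = 0.131). Slc12a2, the sodium, potassium and chloride cotransporter NKCC1, stood at 659 to 955 CPM at 3 months and 431 to 574 CPM at 6 months, again apart. It fell by 0.76 (SE 0.12; adjusted p = 0.00149), was higher in O4 sorts (log2 ratio -1.26) and was at -0.30 ± 0.12 with the myelin term. The water channel gene Aqp4 (0.079 ± 0.13) and the connexin genes Gja1 (0.13 ± 0.14) and Gjb6 (0.24 ± 0.10) did not pass. Gjb2, a further connexin, rose by 0.49 ± 0.12 (adjusted p = 0.0129), a call that needed 3 month replicate 4. Of 15 genes of glutamate and GABA handling 2 rose and 0 fell (13.3% called). The amino acid transporter genes Slc7a10 (0.34 ± 0.11) and Slc38a3 (0.38 ± 0.12) were called higher. Neither held, and dropping replicate 3 or 4 of 3 months or any of replicates 1 to 4 of 6 months left no rise. Slc1a2 (-0.30 ± 0.16), Slc1a3 (0.051 ± 0.14) and the glutamine synthetase gene Glul (-0.065 ± 0.14) did not pass.

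Notch signalling, which maintains glial precursors and shapes astrocyte maturation, had 4 genes higher and 1 lower of 24. Of the list 20.8% was called, against 14.6% of all tested genes. Heyl, a Notch target, stood at 13.2, 14.3, 13.4 and 8.77 CPM at 3 months and 25.9, 26.3, 22.5, 20.2 and 20.8 CPM at 6 months. The ages were apart and the rise was 0.92 ± 0.14 on the log2 scale (adjusted p = 0.00127), or 0.79 ± 0.22 with the myelin term (adjusted p = 0.184). Lfng, a glycosyltransferase that modifies Notch receptors, stood at 189 to 231 CPM at 3 months and 256 to 326 CPM at 6 months and rose by 0.47 ± 0.10 (adjusted p = 0.00549). The call of the target Hes5 (0.79 ± 0.21) did not survive the loss of replicate 3 of either age, nor that of the feedback inhibitor Nrarp (0.68 ± 0.19) the loss of 3 month replicate 4 or 6 month replicate 3 or 4. Dropping 6 month replicate 3 left 2 rises. Adam10, which cleaves Notch receptors, stood at 171 to 210.2 CPM at 3 months and 126 to 147 CPM at 6 months and fell by 0.51 (SE 0.087; adjusted p = 0.00177).

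In the BMP and TGF-beta pathway 1 gene rose and 4 fell of 26 (19.2% called, against 14.6% of all genes). Bmpr2, a type II BMP receptor, stood at 242, 231, 242 and 225 CPM at 3 months and 132, 134, 142, 159.5 and 211 CPM at 6 months. All 5 libraries of 6 months were lower, with replicate 5 the nearest to 3 months. It fell by 0.59 (SE 0.13; adjusted p = 0.00615), and with the myelin term it was at -0.97 ± 0.17 (adjusted p = 0.0324). In O4 cells it changed by 0.19 ± 0.13, a difference of -0.76 ± 0.18 (adjusted p = 0.00667). Chrd, the secreted BMP antagonist chordin, stood at 4.21, 4.34, 2.58 and 4.204 CPM at 3 months and 8.84, 7.37, 6.69, 8.45 and 5.82 CPM at 6 months and rose by 0.93 ± 0.19 on the log2 scale (adjusted p = 0.00451). Smad7, Bmp2 and Tgfbr1 were called lower but not held. The lower genes numbered 2 when replicate 1 or 3 of 3 months or replicate 4 of 6 months was dropped, and 1 when replicate 4 of 3 months was. In the Wnt pathway 2 genes rose and 4 fell of 29 (20.7% called). The receptor gene Fzd1 stood at 49.8 to 61.5 CPM at 3 months and 69.1 to 98.2 CPM at 6 months and rose by 0.49 ± 0.10 (adjusted p = 0.00566), and the secreted antagonist gene Sfrp5 stood at 14.2, 7.06, 8.29 and 8.82 CPM at 3 months and 29.8, 52.7, 32.02, 16.9 and 16.7 CPM at 6 months, a rise of 1.59 ± 0.36 on the log2 scale (adjusted p = 0.0143). Both rises held and neither gene overlapped between ages. The 4 lower genes (Lrp6, Lrp4, Apc and Nkd1) were not held, and their number was 0 on dropping 3 month replicate 3, 1 on dropping 3 month replicate 4 or 6 month replicate 3, and 2 on dropping replicate 1 or 2 of 3 months or 1 or 4 of 6 months.

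Of 20 genes of fatty acid synthesis and desaturation 2 rose and 5 fell (35.0% called). Srebf1, the transcription factor that drives this pathway, stood at 482, 442, 443 and 343 CPM at 3 months and 615, 557, 622, 643 and 577 CPM at 6 months, apart between ages, and rose by 0.50 ± 0.11 on the log2 scale (adjusted p = 0.00576). Acacb, an acetyl-CoA carboxylase, rose by 0.49 ± 0.11 (adjusted p = 0.00811) at 14.8 to 18.6 CPM at 3 months and 20.5 to 25.8 CPM at 6 months. The desaturase gene Scd1 stood at 477, 444, 521 and 473 CPM at 3 months and 373, 366, 319, 329 and 335 CPM at 6 months and fell by 0.48 (SE 0.094; adjusted p = 0.0038). The elongase genes Elovl6 (-0.54 ± 0.090) and Elovl7 (-0.76 ± 0.15) fell and held, while Acaca and Scd2 fell and did not. The genes that fell and held were all higher in O4 sorts (log2 ratios of ACSA2 over O4: Scd1 -1.64, Elovl6 -0.79 and Elovl7 -1.55), while Srebf1 (0.84) and Acacb (2.05) were higher in ACSA2 sorts. Dropping replicate 3 or 4 of 3 months left 3 lower genes. In O4 cells Scd1 rose by 0.77 ± 0.15 (adjusted p = 0.0009), a difference of -1.22 ± 0.21 (adjusted p = 0.000539). Elovl6 (-0.53 ± 0.14) and Elovl7 (-0.55 ± 0.13) fell there. Acacb rose in O4 cells by 2.27 ± 0.22, a difference of -1.76 ± 0.28 (adjusted p = 0.000266).

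Cholesterol synthesis genes had 3 higher and 1 lower of 26 (15.4% called, against 14.6% of all genes, median 0.08). In O4 cells 22 of the same genes fell (median -0.89), against 13.1% of all genes. For 20 the age change differed between the sorts, against 16.4% of all genes. Tm7sf2, a sterol reductase gene, stood at 22.4 to 31.7 CPM at 3 months and 35.9 to 43.2 CPM at 6 months and rose by 0.53 ± 0.11 (adjusted p = 0.00416), which held. It overlaps Vps51. Mvk, Insig1 and Hmgcs1 were called but not held. For Hmgcs1, which makes HMG-CoA, the change was -0.40 ± 0.11 in astrocytes and -1.29 ± 0.19 in O4 cells, a difference of 0.91 ± 0.25 (adjusted p = 0.019) that was not called without 6 month ACSA2 replicate 1. Rises numbered 1 on dropping 3 month replicate 4 or any of replicates 1 to 4 of 6 months, and 5 on dropping replicate 5 of 6 months.

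Glycolysis, fat oxidation and oxidant defence showed few calls. Of 30 glucose genes only Slc2a4, which encodes the transporter GLUT4, rose (1.35 ± 0.18) and 0 fell, a share of 3.33%. Its libraries stood at 3.77, 4.48, 6.11 and 3.32 CPM at 3 months and 13.5, 11.2, 11.1, 9.23 and 10.0 CPM at 6 months. Of 24 genes of fatty acid oxidation and ketone metabolism (8.33% called) the dehydrogenase gene Bdh1 was called higher. The acyl-CoA synthetase gene Acsl1 was called lower, and neither held. Of 26 genes of oxidant defence and metal binding only Gsta4 was called (3.85%), higher, and it did not hold. Over all genes 14.6% were called. In O4 cells 6 of the 30 glucose genes rose and 5 fell, where 14.3% of all genes rose and 13.1% fell. Slc2a4 rose there by 2.40 ± 0.37 (adjusted p = 7.55e-05). Its difference between the sorts was -1.04 (adjusted p = 0.107), not called, and passed only without O4 6 month replicate 1 (adjusted p = 0.0497).

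Antigen presentation and complement genes had 6 higher and 1 lower of 18 (38.9% called, median 0.41). The rises of C3 (1.21 ± 0.25), the central complement component, and C4b (0.59 ± 0.14) held, and C3 stood at 4.53, 10.9, 10.9 and 9.24 CPM at 3 months and 20.1, 15.5, 17.4, 22.2 and 26.2 CPM at 6 months. C3 was apart between ages, and with the myelin term it was at 0.47 ± 0.31 (adjusted p = 0.55). C4b shares sequence with C4a and is uncertain. The peptide transporter genes Tap1 (0.86 ± 0.21) and Tap2 (0.58 ± 0.17) and H2-K1 (0.35 ± 0.10), a class I gene with close relatives, were not held, nor were C1qc, which microglia express, and Cd59a, the lower gene. Rises numbered 2 on dropping 3 month replicate 4 and 3 on dropping 6 month replicate 3. The summed microglia markers given above were higher at 6 months in each library, and their part in these changes was not tested. In O4 cells 10 of 19 genes of this list rose and 1 fell (median 0.71), where 14.3% of all genes rose and 13.1% fell. The age change of 7 differed between the sorts, against 16.4% of all genes. C3 rose there by 1.19 ± 0.28 (adjusted p = 0.00353), Tap2 by 1.18 ± 0.24 and H2-K1 by 0.82 ± 0.12.

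Of 29 extracellular matrix genes 2 rose and 4 fell (20.7% called, against 14.6% of all genes). Col5a3, a fibrillar collagen gene, stood at 26.1, 30.4, 19.3 and 25.2 CPM at 3 months and 43.0, 42.1, 49.5, 51.8 and 54.8 CPM at 6 months. The ages were apart, the rise was 0.94 ± 0.12 on the log2 scale (adjusted p = 0.000505), and at 10 months the level was 91.7 and 85.1 CPM. In O4 cells Col5a3 changed by -0.28 ± 0.26, a difference of 1.25 ± 0.33 (adjusted p = 0.014). The proteoglycan gene Bcan (0.41 ± 0.13) was called higher and Lamc1, Adamts1, Adamts4 and Lox lower, none of them held. Rises numbered 4 on dropping 3 month replicate 2 and 1 on dropping any other library except 6 month replicates 2 and 5. The lower genes numbered 2 on dropping replicate 2 or 4 of 3 months or 2 or 5 of 6 months, and 1 on dropping replicate 3 of 3 months or 3 or 4 of 6 months.

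Among 18 engulfment genes (27.8% called) 1 rose (Gas6, a bridging ligand, not held) and 4 fell. Tyro3, a receptor for apoptotic cells, stood at 162 to 239 CPM at 3 months and 103 to 139 CPM at 6 months and fell by 0.65 (SE 0.12; adjusted p = 0.00283). Elmo1 (-0.71 ± 0.14) and Dock1 (-0.35 ± 0.077), which activate Rac during uptake, fell too, and all 3 calls held. By the log2 ratio of ACSA2 over O4, Tyro3 (-1.50) and Elmo1 (-1.77) were higher in O4 sorts and Dock1 slightly so (-0.24), and with the myelin term Elmo1 was at -0.094 ± 0.12 and Dock1 at -0.32 ± 0.11. Megf10, an engulfment receptor of astrocytes, was called lower at 362 to 417 CPM at 3 months and 299.8 to 358 CPM at 6 months, but only just (-0.28 ± 0.090, adjusted p = 0.045), and the call was lost without each of 8 libraries in turn. Among 24 synapse-forming and synapse-organising factors (8.33% called, against 14.6% of all genes) 0 rose. Ephb1 fell and held (-0.60 ± 0.11, with a log2 ratio of ACSA2 over O4 of -1.18), and Epha4 fell (-0.35 ± 0.094) without holding.

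Cell division genes had 0 higher and 3 lower of 29 (10.3% called, median -0.33), with only Top2a held. The call of Mki67, a proliferation marker, at 5.72 to 16.9 CPM at 3 months and 2.40 to 9.11 CPM at 6 months, was lost without each of 5 libraries in turn, and the lower count became 1 in each of those. In O4 cells, where 14.3% of all genes rose, 20 of 25 immediate early genes did, which respond quickly to stimulation or handling. In ACSA2 sorts Ier3 and Ccn1 were higher and Arc lower (12% called, against 14.6% of all genes), none held. Rises numbered 5 on dropping 6 month replicate 2 and 1 on dropping replicate 1, 3 or 4 of 3 months or 3 of 6 months. In the MYC network only Mnt, a repressor that binds MAX, was called of 13 (7.69% called). Mnt rose by 0.30 ± 0.099, and its call was lost without each of 8 libraries in turn. Myc stood at 8.09, 5.16, 7.74 and 4.52 CPM at 3 months and 5.55, 4.33, 6.13, 7.35 and 5.48 CPM at 6 months, with overlapping ages, a change of -0.092 ± 0.21 (adjusted p = 0.812).

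Of 30 ALS genes 1 rose and 3 fell (13.3% called, against 14.6% of all genes). Tardbp, the gene of the mouse TDP-43 protein, stood at 83.8 to 109.9 CPM at 3 months and 84.7 to 119 CPM at 6 months without passing (0.11 ± 0.10, adjusted p = 0.506). The label of the transgene could not be checked from this level, since both ages carry it and no source used here says whether its reads were counted under this symbol. Anxa11, a membrane tethering protein of RNA granules, stood at 10.0, 11.4, 12.8 and 12.4 CPM at 3 months and 18.1, 15.7, 17.0, 17.4 and 23.0 CPM at 6 months and rose by 0.65 ± 0.13 on the log2 scale (adjusted p = 0.00396). In O4 cells it rose by 2.08 ± 0.23, a difference of -1.40 ± 0.28 (adjusted p = 0.0017). Atxn2, an RNA-binding protein, stood at 199.7 to 225 CPM at 3 months and 150.3 to 172 CPM at 6 months and fell by 0.37 (SE 0.080; adjusted p = 0.00626). Kif5a, a kinesin motor that neurons and oligodendrocytes express, stood at 56.8, 102, 83.0 and 70.2 CPM at 3 months and 53.8, 44.1, 41.4, 44.5 and 43.4 CPM at 6 months and fell by 0.78 (SE 0.18; adjusted p = 0.0124). It was far higher in O4 sorts (log2 ratio -4.17), where it rose by 1.75 ± 0.22. Erbb4 was called lower but not held.

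Among abundant genes (at least 100 CPM on average) with the smallest p-values, all 10 that fell were higher in O4 than in ACSA2 sorts and 9 of 10 that rose were higher in ACSA2 sorts. Of all called genes, 91.5% of those that fell and 8.71% of those that rose were higher in O4 sorts. Hipk2, a nuclear kinase, stood at 376, 377, 445 and 452 CPM at 3 months and 241, 227, 214, 247 and 225 CPM at 6 months. The ages were far apart. Hipk2 fell by 0.84 (SE 0.093; adjusted p = 0.000191), and was at -0.68 ± 0.13 with the myelin term (adjusted p = 0.045). In O4 cells it rose by 0.59 ± 0.12, a difference of -1.40 ± 0.17 (adjusted p = 3.26e-05). Slc38a2, a transporter of neutral amino acids, stood at 531, 416, 490.2 and 706 CPM at 3 months and 248, 233, 259.6, 277 and 277 CPM at 6 months and fell by 1.05 (SE 0.13; adjusted p = 0.000301). In O4 cells it changed by 0.29 ± 0.17, a difference of -1.31 ± 0.23 (adjusted p = 0.000617). Erbb3, the neuregulin receptor of the oligodendrocyte and Schwann cell lineages, fell by 1.01 (SE 0.14; adjusted p = 0.000692) and was at -0.44 ± 0.13 with the term. The semaphorin gene Sema6a (-0.69 ± 0.094), the actin regulator gene Shroom2 (-0.71 ± 0.094), the exchange factor genes Dock10 (-0.96 ± 0.13) and Dock5 (-1.15 ± 0.14), the hedgehog inhibitor gene Hhip (-0.78 ± 0.11), Pcdh9 (-0.75 ± 0.11) and Tmem178b (-0.89 ± 0.13) also fell.

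Of the abundant genes that rose, Pik3ip1, an inhibitor of PI3 kinase, stood at 106.1, 95.2, 95.9 and 79.9 CPM at 3 months and 194, 199, 175, 163 and 126 CPM at 6 months. It rose by 0.86 ± 0.12 on the log2 scale (adjusted p = 0.000777) and by 0.99 ± 0.18 with the myelin term (adjusted p = 0.045). Its difference from O4 cells was 1.003 ± 0.19 (adjusted p = 0.00133). Etnppl, an astrocyte enzyme that degrades phosphoethanolamine, stood at 74.3, 80.8, 78.4 and 59.8 CPM at 3 months and 158, 202, 153, 138 and 97.9 CPM at 6 months, apart between ages, and rose by 1.03 ± 0.16 on the log2 scale (adjusted p = 0.00145). The lipid transfer protein gene Pitpnm2 (0.82 ± 0.11), the kinase gene Tnik (0.60 ± 0.10) and the cytoplasmic actin gene Actg1 (0.52 ± 0.088) rose as well. Actg1 was the abundant riser with the higher level in O4 sorts, and changed by -0.44 ± 0.12 there.

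Among genes that fell by the largest factors, 14 of 15 were higher in O4 sorts, beside 91.5% of all genes that fell. The largest fall of all tested genes (-2.47) was that of a choroid plexus marker. Of 18 such markers 8 fell, among them Kl and Prlr. Nid1, a basement membrane protein, stood at 23.6 to 52.3 CPM at 3 months and 11.1 to 16.2 CPM at 6 months (-1.20 ± 0.25), and the metalloprotease gene Adam19 at 32.6 to 62.8 CPM at 3 months and 17.5 to 22.9 CPM at 6 months (-1.15 ± 0.19). Both fell in O4 cells as well, with changes of -1.75 ± 0.21 and -1.04 ± 0.15. The phosphodiesterase gene Pde3a did the opposite. It stood at 6.58, 10.3, 9.65 and 12.4 CPM at 3 months and 3.00, 4.17, 3.78, 4.94 and 5.40 CPM at 6 months. It fell by 1.18 (SE 0.23; adjusted p = 0.00327) in astrocytes and rose in O4 cells by 1.31 ± 0.20, a difference of -2.46 ± 0.30 (adjusted p = 3.15e-05). Rapgef5 and Clgn were called lower but not held. Rapgef5 stood at 48.6 to 146 CPM at 3 months and 29.5 to 37.3 CPM at 6 months, and its highest value was that of 3 month replicate 4. With the myelin term Rapgef5 was at -0.21 ± 0.37 and Clgn at 0.10 ± 0.35.

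**Figure D5:**
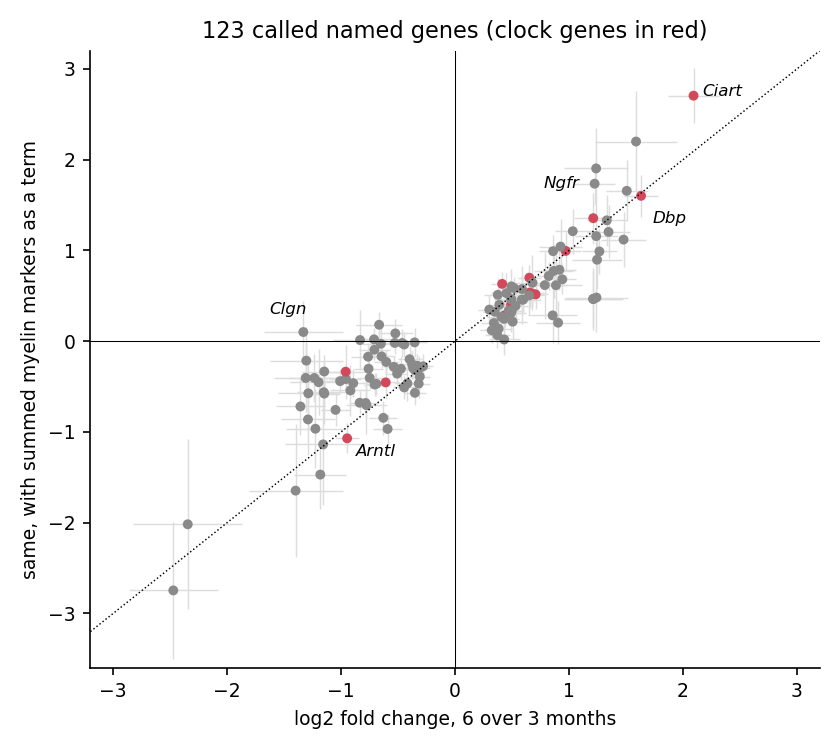
Log2 fold change of 6 over 3 months for the 123 called named genes with standard errors, in the fit of the 3 ages (horizontal axis) and with the log2 summed level of 22 myelinating oligodendrocyte markers as a term (vertical axis). Ciart, Dbp, Arntl and Ngfr lie near or beyond the dotted line of equality, while many genes that fell lie nearer to 0 with the term.

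Genes that fell were long. The median exonic length in GENCODE vM21 was 6987.5 bases for the genes that fell and 3805 bases for those that rose, with a length found for 98.2% of tested genes. With genes split evenly by length, 2.74% fell among those of up to 2985 bases, 6.14% among those of up to 5586 bases and 16.1% among longer ones. The shares that rose were 6.70%, 7.52% and 4.68%. Within the genes at least 4-fold higher in ACSA2 sorts the share that fell was 0.676%, 0.261% and 0.632% from shortest to longest. Among the genes without such a difference between sorts it was 3.10%, 7.15% and 18.0%. The part of length in these calls was not tested.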

How the data were processed

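RNA was measured by poly(A) RNA-seq with unique molecular identifiers (UMIs). Raw counts per gene and TPM were deposited by the authors for each library, with replicates not pooled. Per the submitters' processing notes the tools were featureCounts 2.0.1, STAR 2.7.7a, fastp, DESeq2 and UMI-tools 1.0.1, in no given order. The notes list mm10, GRCm38.p6 and GRCm39 as builds. The build of these counts, and whether strand and UMIs were used in counting, are not given in the sources used here. Gene positions and lengths come from GENCODE vM21 by symbol, and promoters from RefSeq (GRCm38.p6).

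Groups were taken from the sample titles. From the counts, the 11 ACSA2 libraries were fitted with edgeR 4.0.16 (R 4.3.3; TMM scaling, filterByExpr with a minimum count of 10, robust quasi-likelihood F test, 1 mean per age), and 6 was contrasted with 3 months. The difference from O4 cells came from a joint fit of 17 libraries. p-values were adjusted over all genes tested by Benjamini-Hochberg. Tested on simulated data for this contrast (15721 genes, 200 changed), the fit recovered 97% of 2-fold and 100% of 4-fold changes with 12 false calls. The changed genes had a mean of at least 5 CPM, and no difference in myelin level between libraries was simulated. Smaller changes were not simulated, while the genes called in the data had a median absolute log2 change of 0.53. These rates therefore need not hold for the calls above. The TPM deposited by the authors served only to compare levels of different genes.

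Named genes were up to 15 each way by size of change (ages apart, higher mean of at least 5 CPM), up to 10 each way by p among genes of at least 100 CPM, all clock genes, up to 5 called members of each other list by p, and Myc, Mycn, Max, Tardbp, Gfap, Vim, C3, C4b, Cdkn1a and Apoe. Marker genes are named beside them as a check of the label, and genes called with the myelin term were chosen after their values were seen. A few members of the lists entered the counts and sums but are not reported here by name. The comparison, the lists and the rule were chosen with earlier results of these data known. Tried in place of the settings above were DESeq2 1.42.0, limma-voom (limma 3.58.1), scaling by RLE, all genes unfiltered, a minimum of 1 CPM in 4 libraries, 3 and 6 month libraries alone, a replicate block, each library left out, and, added after the data were seen, a term for myelin markers and, for changes in O4 cells, each O4 library left out.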

Additional observations from a re-analysis of the deposited data

Results flagged for a closer look

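A library lay apart from the others of its age in 12 of 278 groups of values looked at, by Dixon's criterion, which chance meets in about 1 group in 20. At 3 months replicate 4 was the highest for Hif3a (28.2 CPM) and Tmem59l (7.21 CPM), replicate 1 the highest for Pcdhb11 (3.34 CPM) and replicate 3 the lowest for Chrd (2.58 CPM). At 6 months replicate 5 was the lowest for Adam19 (17.5 CPM) and Tyro3 (103 CPM) and the highest for Rorb (247 CPM) and Car9 (15.2 CPM). Replicate 1 of 6 months was the highest for T2 (19.8 CPM), Kif5a (53.8 CPM) and Ier3 (4.65 CPM), and replicate 2 the highest for Sema6a (243.5 CPM).

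The change from 3 to 6 months differed between ACSA2 and O4 sorts, by the interaction term, for 21 of 51 genes looked at. Over all genes the share was 16.4%. The 51 were clock genes and genes named by the size of their ACSA2 change, which enters the difference. The count is therefore not to be read against that share. The astrocyte minus O4 difference on the log2 scale was positive for Ciart (2.19), Dbp (2.18), Pcdhb11 (1.70), Per3 (1.37), Arntl2 (1.25), Ngfr (0.99), Nr1d2 (0.64), Tef (0.61), Bhlhe41 (0.60) and Cry2 (0.49). It was negative for Clock (-0.60), Crybg3 (-0.71), Dock5 (-0.81), Nfil3 (-0.81), Smco3 (-1.18), Fbn2 (-1.36), Arntl (-1.38), Npas2 (-2.21), Pde3a (-2.46), Kl (-5.14) and Prlr (-5.26). These calls depended on the libraries for Crybg3, just inside the threshold at an adjusted p of 0.04998 and lost without each of 13 of the 17 libraries, for Fbn2 (lost without each of 12), for Smco3 (9), for Nr1d2 and Arntl2 (8 each), for Nfil3 (2) and for Bhlhe41 (1). Kl and Prlr are choroid plexus markers, a list of which 17 of 18 genes rose in O4 sorts.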

How the results depend on the processing

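With the myelin term 9 genes rose and 5 fell. Leaving out each library in turn gave 541 to 1191 genes that rose, 620 to 1515 that fell and 2089 to 3508 that differed between sorts. The rises were over 1.5 times fewer without replicate 4 of 3 months (541) or replicate 3 (605) or 4 (651) of 6 months. The falls were so without 3 month replicate 1 (858), 3 (815) or 4 (620) or 6 month replicate 3 (832). Over DESeq2, limma-voom, RLE scaling, both other filters and the 3 and 6 month libraries alone, 965 to 1223 genes rose and 1226 to 1471 fell. Equal replicate numbers did not pair the libraries (correlations of deviations -0.076, -0.056, -0.088 and 0.130). With the number as a replicate block 941 genes rose, 1192 fell and 2507 differed between sorts, and Rora was at -0.0059.

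Of 123 called named genes 116 were no longer called with the myelin term. Of all 139 named genes 10 changed sign with it: Clgn (0.10), Arntl2 (0.18), Rora (-0.27), Cry1 (-0.15), Hlf (-0.15), Csnk1d (0.054), Ndrg1 (0.020), Bmp2 (0.012), Adamts4 (0.18) and Arc (0.085). The cause was not tested. The replicate block ended the calls of Kl, Clgn, Errfi1, Vim, Megf10, Bmp2, Lrp4, Hmgcs1 and Ier3, and those of the differences between sorts of Smco3, Arntl2 and Nr1d2. It brought that of Usp31 past the threshold. Without a filter the calls of Sfrp5, Clgn, Rapgef5, Nr3c1, Megf10, Tgfbr1, Lrp4, Mnt and Lox were lost, and with the 3 and 6 month libraries alone those of Slc7a10, Megf10, Mnt, Insig1 and Bcan. RLE scaling lost Megf10, the CPM filter Slc7a10, and limma-voom Mnt and Mvk, while Per1 was called by limma-voom and DESeq2. Under limma-voom Myc was at 0.023. Leaving out each library in turn, the uncalled genes Arntl2 (-0.19 to 0.096), Rora (-0.036 to 0.11), Myc (-0.23 to 0.073) and Gfap (-0.10 to 0.11) crossed 0.

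Differences between sorts that were not called changed sign with the replicate block for Pla2g4a (-0.00240), Adam19 (0.017), Per1 (0.077) and Csnk1e (0.045), and without a filter for Csnk1e (0.023). Leaving out each library in turn, the difference crossed 0 for Sfrp5 (-1.61 to 0.16), Hif3a (-1.88 to 0.84), Tspan4 (-1.24 to 0.75), Hba-a1 (-0.28 to 0.98), Clgn (-0.40 to 0.30), Pla2g4a (-0.069 to 0.38), Rapgef5 (-0.27 to 0.32), Adam19 (-0.21 to 0.094), Rora (-0.15 to 0.0084), Rorb (-0.037 to 0.58), Per1 (-0.46 to 0.36), Nr1d1 (-0.090 to 0.22) and Csnk1e (-0.084 to 0.083). Genes below the minimum count, such as 5 microglia markers, could not be tested at this depth.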
